A study of Mus musculus with 2 samples.

Results

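The alpha and beta tubulin isotypes are the 10 genes Tuba1a, Tuba1b, Tuba1c, Tuba4a, Tuba8, Tubb2a, Tubb3, Tubb4b, Tubb5 and Tubb6, taken by gene symbol out of 17216 genes listed in either of 2 RNA libraries. All 10 were found, 5 alpha and 5 beta, and 9 of them averaged 1 FPKM or more over the libraries, where FPKM is the deposited level per gene, a fragment count scaled for transcript length and library size. The first library came from long-term haematopoietic stem cells (LT-HSCs) of Ccp3-/- mice and the second from wild type littermates. Both were of the C57BL/6 strain and were sorted by flow cytometry as lineage-negative, Sca-1+, c-Kit+, CD48-, CD150+ cells, and the labels name no treatment, age, sex, deleted exon or number of animals. There was 1 library per genotype, so no test between genotypes was possible, no difference has a replicate check, and each value compares these libraries only.

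Microtubules are built from dimers of one alpha and one beta tubulin, and mammals encode each chain in several genes, called isotypes, that differ mostly in their carboxy-terminal tails. The tails project from the microtubule surface and carry chains of added glutamates, which enzymes of the TTLL family attach and cytosolic carboxypeptidases such as CCP3 (gene Agbl3) trim. Most alpha tubulins also end in an encoded tyrosine that can be removed and put back. Cells that divide, as blood progenitors do, depend on tubulin for the mitotic spindle.

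Agbl3, the gene targeted, had 0.66 FPKM in the Ccp3-/- library and 1.11 FPKM in the wild type library. Their ratio was 0.595, with a 95% counting interval of 0.289 to 1.19 from about 15 and 23 reads. The interval holds 1, and the part of the gene that was deleted is not given, so Agbl3 did not check the genotype; the library is called KO-labelled from here on. Cd48, whose protein the sort excluded, stood at 114 FPKM in the KO-labelled and 136 FPKM in the wild type library, while Slamf1, which encodes CD150, stood at 3.40 and 2.14 FPKM, so RNA for the excluded protein was far above RNA for the selected one in each library, which goes against the labelled cell type. Of all 11985 genes averaging 1 FPKM or more, 6.11% passed 1.5-fold upwards and 6.13% downwards in the KO-labelled library. Beside that background, 4 of 8 neutrophil genes were at least 1.5-fold higher (summed level 11009 FPKM, against 7810 FPKM in the wild type library). Camp, in the same list, went the other way (152 and 207 FPKM). All 7 B cell genes were at least 1.5-fold lower (51.3 and 112 FPKM). All 5 dendritic cell genes were as well (185 and 348 FPKM), as were 5 of 6 erythroid genes (317 and 1375 FPKM), all but Klf1 (6.77 and 5.76 FPKM). Also at least 1.5-fold lower were 2 of 5 T cell genes (14.4 and 20.8 FPKM) and 3 of 10 genes of the sort gate and of LT-HSCs (259 and 341 FPKM). The sort gate list includes Cd48, the excluded marker, which made up 114 and 136 FPKM of those last sums. Genes that differ between the sexes differed as well. Xist, which is transcribed from the inactive X chromosome, stood at 44.2 FPKM in the KO-labelled and 5.38 FPKM in the wild type library. The Y-linked genes Eif2s3y (11.5 and 44.6 FPKM), Ddx3y (5.93 and 13.8 FPKM), Kdm5d (2.10 and 6.66 FPKM) and Uty (1.89 and 3.73 FPKM) were lower in the KO-labelled library, so sex make-up and genotype cannot be told apart here. In such bulk RNA a different mix of cells and a different level per cell cannot be told apart, and the part of these markers in the tubulin values was not tested.

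The coding ends of 6 of the isotypes are shown because the tail is where glutamates are attached and where CCP3 and its relatives act. Each line gives the last 20 codons before the stop codon, 5′ to 3′ on the coding strand, read from GENCODE transcripts of the mouse build GRCm38, with the glutamate codons GAA and GAG in capitals.
Tuba4a: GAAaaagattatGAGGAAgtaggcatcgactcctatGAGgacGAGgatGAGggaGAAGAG
Tuba8: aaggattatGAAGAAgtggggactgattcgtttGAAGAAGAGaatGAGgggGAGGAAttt
Tubb5: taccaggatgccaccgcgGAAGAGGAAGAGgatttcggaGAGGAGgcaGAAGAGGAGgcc
Tubb4b: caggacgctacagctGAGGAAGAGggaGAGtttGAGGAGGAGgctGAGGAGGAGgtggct
Tubb2a: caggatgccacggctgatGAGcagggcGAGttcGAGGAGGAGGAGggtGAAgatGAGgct
Tubb3: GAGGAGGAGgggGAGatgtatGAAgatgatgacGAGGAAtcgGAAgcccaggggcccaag
Every tail shown is rich in glutamate codons, with 10 of 20 codons in Tubb4b, 9 in Tubb5 and 8 in Tuba4a, Tuba8, Tubb2a and Tubb3. Tuba4a ends in a glutamate codon and Tuba8 in ttt, a phenylalanine codon, so these transcripts encode no final tyrosine.

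The alpha chain came mainly from Tuba1b (Entrez gene 22143), the broadly expressed isotype of dividing cells, at 766 FPKM in the KO-labelled and 818 FPKM in the wild type library. The ratio was 0.936 (95% counting interval 0.918 to 0.955), from about 18727 and 21632 reads. It ranked 101 and 100 among all genes by level, so it stood near the top of each library.

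Tuba4a (Entrez gene 22145), like Tuba8 an isotype without the encoded tyrosine and one that platelets also use, was listed at 272 FPKM in the KO-labelled and 224 FPKM in the wild type library. Its ratio of 1.22 (1.18 to 1.26) was the highest among the 9 members averaging 1 FPKM or more, nearly level with Tuba8 at 1.21 (1.04 to 1.41). Tuba4a moved apart from Tuba1b, the other abundant alpha gene. The Tuba4a to Tuba1b ratio of levels was 0.355 in the KO-labelled and 0.273 in the wild type library. That made a ratio of ratios of 1.30 (approximate 95% counting interval 1.253 to 1.350), which takes no account of reads shared with other genes. Megakaryocyte and platelet markers were mixed: 0 of the 4 averaging 1 FPKM or more passed 1.5-fold upwards, 2 (Gp9 and Ppbp) passed it downwards, and all 6 listed genes summed to 43.0 FPKM in the KO-labelled and 45.1 FPKM in the wild type library. Of those 4 markers, 3 were lower in the KO-labelled library. Only Itga2b, the platelet integrin gene, differed in the same direction as Tuba4a, with 26.5 and 20.9 FPKM and a ratio of 1.27 (1.17 to 1.38). Itga2b supplied most of the sum in the KO-labelled library, and the 6 genes include Tubb1, itself a beta tubulin gene. The part of Itga2b in the Tuba4a value was not tested.

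The other alpha isotypes were much lower. Tuba1c (Entrez gene 22146) was listed at 47.9 FPKM in the KO-labelled and 41.8 FPKM in the wild type library, a ratio of 1.15 (1.06 to 1.24). Tuba1a (Entrez gene 22142), the main isotype of young neurons, went the other way, with 39.7 and 45.5 FPKM and a ratio of 0.871 (0.797 to 0.953). Tuba8 (Entrez gene 53857), whose coding sequence ends in a phenylalanine codon, was listed at 17.7 and 14.6 FPKM, a ratio of 1.21 (1.04 to 1.41). The counting interval left out 1 for all 5 alpha genes, above 1 for Tuba1c, Tuba4a and Tuba8 and below 1 for Tuba1a and Tuba1b, yet these intervals cover counting error only and say nothing of variation between animals.

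The beta chain came mainly from Tubb5 (Entrez gene 22154), the common beta isotype of dividing and blood cells, which hardly differed: 425 FPKM in the KO-labelled and 427 FPKM in the wild type library, a ratio of 0.995 (0.974 to 1.02). Tubb4b (Entrez gene 227613), an isotype found in most tissues and in cilia, was listed at 210 and 224 FPKM, a ratio of 0.936 (0.900 to 0.974). Both abundant beta genes thus lay within 1.5-fold by a wide margin. The Tubb4b to Tubb5 ratio of levels was 0.495 in the KO-labelled and 0.526 in the wild type library. That made a ratio of ratios of 0.940 (0.899 to 0.983).

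Few reads stood behind the remaining beta genes. Tubb6 (Entrez gene 67951) was listed at 5.80 FPKM in the KO-labelled and 4.95 FPKM in the wild type library, a ratio of 1.17 (0.926 to 1.499). Tubb2a (Entrez gene 22151) stood at 3.59 and 4.38 FPKM, a ratio of 0.820 (0.608 to 1.10), and a difference of this size was not detectable for either gene at this depth. Tubb3 (Entrez gene 22152), the beta isotype used as a marker of neurons, was listed at 0.24 and 0.08 FPKM from about 6 and 2 reads. Its ratio of 3 had an interval of 0.580 to 32.9, so neither a rise nor a fall could be seen. Neuron markers were likewise near 0: of 6, 5 were listed in at least 1 library, none had a mean of 1 FPKM, their sum was 1.16 FPKM in the KO-labelled and 1.39 FPKM in the wild type library, and Syt1 was in neither file. Most of that sum, 0.71 and 0.95 FPKM, was Tubb4a, which is itself a beta tubulin gene.

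**Figure D1:**
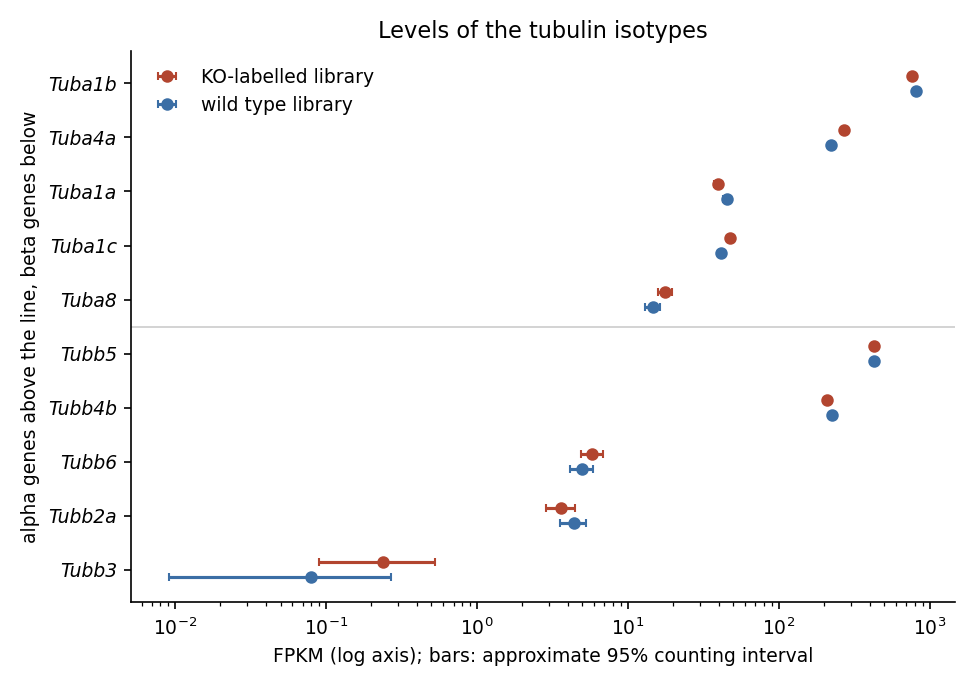
FPKM (log axis) of the 10 isotypes in the KO-labelled library (red) and the wild type library (blue), alpha genes above the line and beta genes below it; each point is 1 library and bars are approximate 95% counting intervals. Tuba1b, Tubb5, Tuba4a and Tubb4b lie at 210 FPKM or above in each library and Tubb3 below 1 FPKM.

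The order of the isotypes by FPKM, which is scaled for length and so can be compared between genes, was the same in both libraries for 6 of 10 members. In the KO-labelled library it ran Tuba1b, Tubb5, Tuba4a, Tubb4b, Tuba1c, Tuba1a, Tuba8, Tubb6, Tubb2a and Tubb3, and no neighbours had overlapping counting intervals. In the wild type library Tubb4b stood before Tuba4a and Tuba1a before Tuba1c. There the intervals of Tubb4b and Tuba4a (224.5 and 223.6 FPKM) overlapped, as did those of Tuba1a and Tuba1c and those of Tubb6 and Tubb2a, so these 3 neighbouring pairs were not separated by counting error. In neither library do the intervals cover how reads shared between genes were split. The places of Tuba1a and Tuba1c, whose transcripts share much sequence, also depend on that split.

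As shares of the summed FPKM of the 10 genes, Tuba1b took 42.8% in the KO-labelled and 45.3% in the wild type library, Tubb5 23.8% and 23.7%, Tuba4a 15.2% and 12.4%, and Tubb4b 11.8% and 12.4%. The other 6 genes took the rest: Tuba1c 2.68% and 2.31%, Tuba1a 2.22% and 2.52%, Tuba8 0.990% and 0.808%, Tubb6 0.324% and 0.274%, Tubb2a 0.201% and 0.243%, and Tubb3 0.0134% and 0.00443%. The Tuba4a share was 2.83 percentage points higher and the Tuba1b share 2.51 points lower in the KO-labelled library, and no other share differed by as much as 1 point. Shares within a library do not depend on how the libraries are scaled to each other.

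Within the alpha chain, Tuba4a made up 23.8% of the FPKM in the KO-labelled and 19.5% in the wild type library, and Tuba1b 66.986% and 71.5%. Within the beta chain Tubb5 held 65.9% and 64.6%, and Tubb4b 32.6% and 34.0%. The number of glutamate codons in the last 20, averaged over beta transcripts by FPKM, was 9.31 in the KO-labelled and 9.33 in the wild type library. RNA shares do not give the amounts of protein, or how many glutamates each tail carried.

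**Figure D2:**
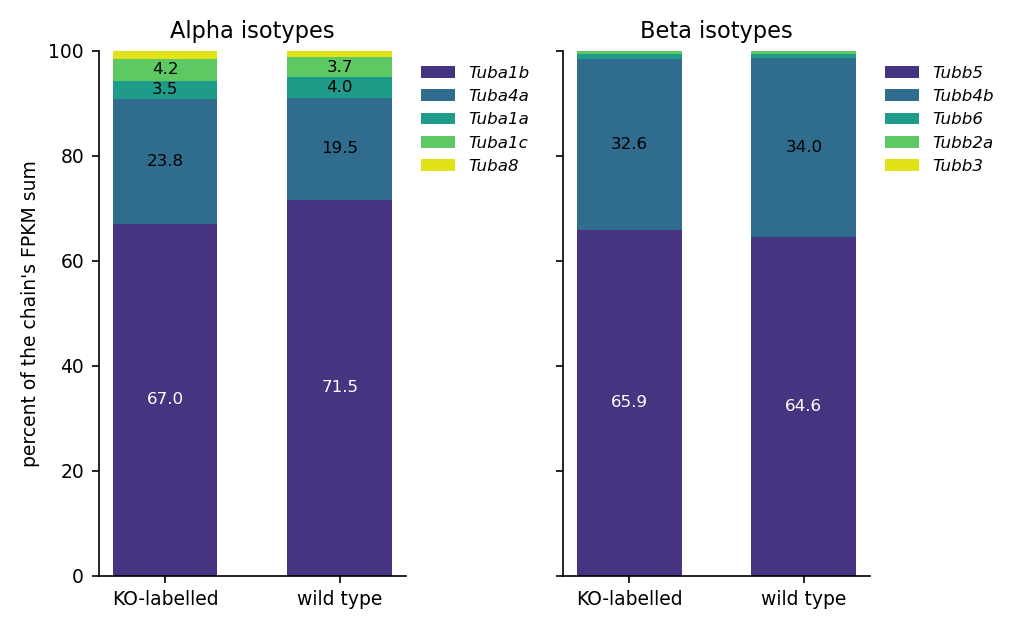
Percent of the summed FPKM of the alpha genes (left) and of the beta genes (right) held by each isotype, in the KO-labelled library (left bar) and the wild type library (right bar), 1 library per bar. Tuba4a takes 23.8% of alpha FPKM in the KO-labelled library, against 19.5% in the wild type library, and the beta bars differ by less than 2 points.

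Summed over isotypes, the alpha chain stood at 1143.5 FPKM in the KO-labelled and 1143.6 FPKM in the wild type library (ratio 0.9999, counting interval 0.984 to 1.02). The beta chain stood at 645 and 661 FPKM (ratio 0.976, 0.958 to 0.994). The alpha to beta ratio was 1.77 in the KO-labelled and 1.73 in the wild type library. The 10 genes together held 0.353% and 0.312% of each library's FPKM sum.

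None of the 9 members averaging 1 FPKM or more differed by 1.5-fold or 2-fold on the log2(FPKM + 1) scale, where the added 1 understates the change of low genes. Of all 11985 genes at that level, 12.2% differed by at least 1.5-fold (6.11% higher and 6.13% lower in the KO-labelled library) and 2.76% by at least 2-fold. The count of 0 is read against that background of 12.2%, and over so few genes it does not set the isotypes apart. The members ranged from -0.23 (Tubb2a) to 0.28 (Tuba4a), with 4 above 0, 5 below 0 and a median of -0.01, where the median over all genes was 0.01 and the quartiles of all genes lay at -0.22 and 0.23.

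The sign of the difference depended on the scaling for Tuba1b, Tubb4b and Tubb5, and not for Tuba4a, which was above 0 under each scaling run. The FPKM sums of the libraries were 506124 in the KO-labelled and 577420 in the wild type library, and setting them equal raised all genes by a common factor and moved their median to 0.18. On that scale Tuba1b stood at 0.09 in place of -0.09, Tubb4b at 0.09 in place of -0.09 and Tubb5 at 0.18 in place of -0.01, each close to or below the shift of the median gene. Tuba4a came to 0.47, Tuba8 to 0.44, Tuba1c to 0.38 and Tubb6 to 0.36, all above that shift, and Tuba1a (-0.01) and Tubb2a (-0.08) stayed below 0. Upper-quartile and median of ratios scaling changed the sign of none of these 9 differences. The 200 genes nearest in length to each member had a median below 0 for 8 of these 9 genes, such as -0.12 for Tuba1b and -0.04 for Tuba4a, and of 0.02 for Tubb5. Relative to such neighbours Tuba1b stood at 0.02, Tubb4b at 0.04, Tubb5 at -0.02, Tuba4a at 0.33, Tuba1c at 0.30, Tuba8 at 0.40, Tubb6 at 0.29, Tuba1a at -0.07 and Tubb2a at -0.07, which makes 6 above 0 and 3 below.

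**Figure D3:**
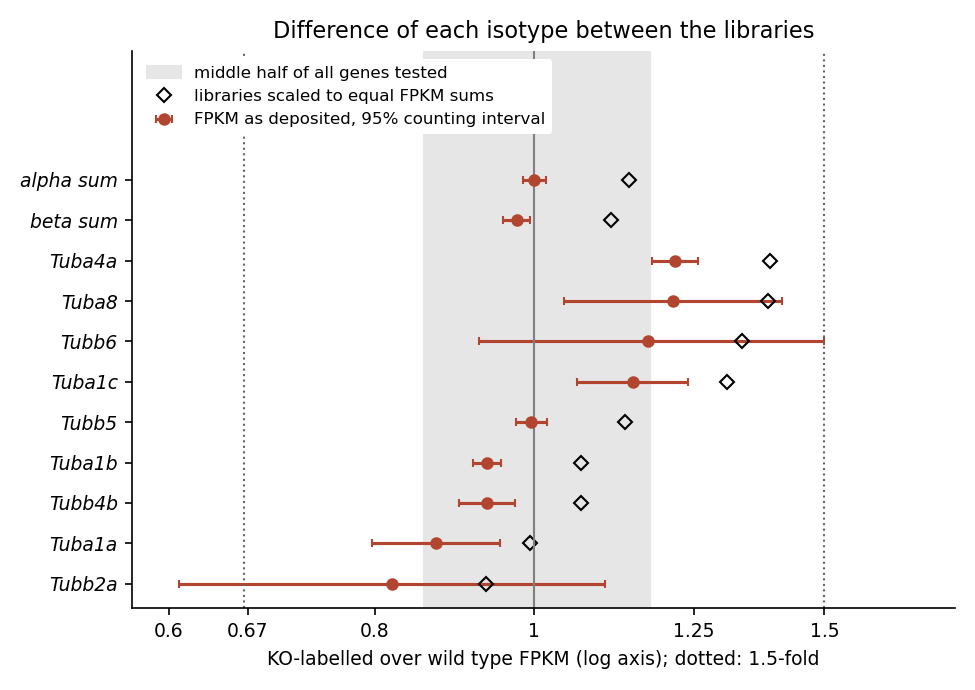
Ratio of KO-labelled over wild type FPKM (log axis) for the alpha and beta sums and for the 9 isotypes averaging 1 FPKM or more. Red points with bars are values as deposited with 95% counting intervals, and open diamonds are values after the libraries were scaled to equal FPKM sums. The grey band lies between the quartiles of all genes tested, taken as deposited on log2(FPKM + 1), so it does not apply to the diamonds. Dotted lines mark 1.5-fold. Every red point and every diamond lies between the dotted lines, with Tuba4a furthest right among the genes.

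**Figure D4:**
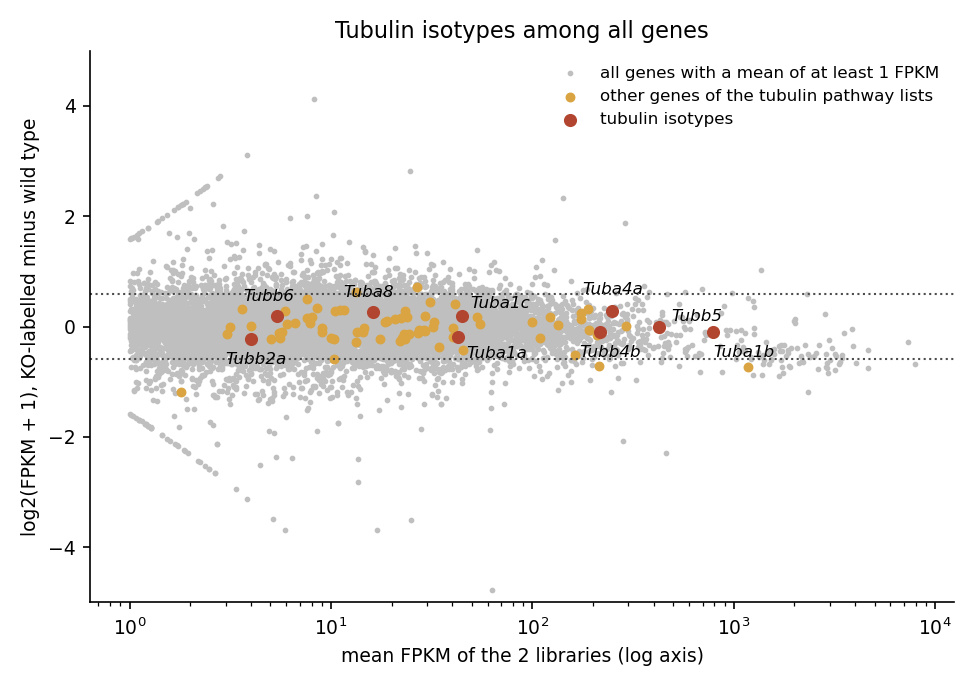
Difference of log2(FPKM + 1), KO-labelled minus wild type, against the mean FPKM of the 2 libraries (log axis), for 11985 genes (grey), the other genes of the tubulin pathway lists (yellow) and the 9 isotypes averaging 1 FPKM or more (red); each point is 1 gene and dotted lines mark 1.5-fold. The isotypes lie between the dotted lines across the range of levels from Tubb2a to Tuba1b.

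How firmly a value belongs to 1 isotype differed between genes, because closely related transcripts share sequence. Of the 50-base windows along each transcript, 67.001% in Tuba1b, 59.8% in Tuba1c and 55.5% in Tuba1a also occur, on either strand, in a transcript of another gene that the files list, mostly one another's. With 100-base windows the shares were 53.7%, 53.4% and 39.2%. Reads from such windows cannot be placed by sequence alone, so the split among these 3 genes is uncertain. When transcripts of any annotated gene were included, the 50-base shares were 83.1% in Tuba1b, 60.99% in Tuba1c and 75.5% in Tuba1a. The sum of the 3 genes, which depends less on that split but still on their different lengths and on reads shared with other genes, was 854 FPKM in the KO-labelled and 905 FPKM in the wild type library, a ratio of 0.943 (0.925 to 0.960).

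Tuba4a shared no 50-base window with another tubulin, but it overlaps Stk16, a kinase gene on the opposite strand. The overlap took 47.7% of the windows of the annotated Tuba4a transcript of 2840 bases, and 28.8% of one of 2083 bases that is nearer to the length in the files. Whether the counting used strand is not given in the sources used here, so which of the genes those reads came from cannot be told. Stk16 was listed at 39.0 FPKM in the KO-labelled and 44.3 FPKM in the wild type library, which is lower than Tuba4a in each and in the other direction. Tubb2a shared 45.6% of its windows with Tubb2b, whereas Tubb5 shared 0.115% and Tubb3, Tubb6 and Tuba8 shared none with a listed gene. Tubb4b shared 4.65% with listed genes and 55.5% when unlisted annotated genes, chiefly Tubb4b-ps1, were included.

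**Figure D5:**
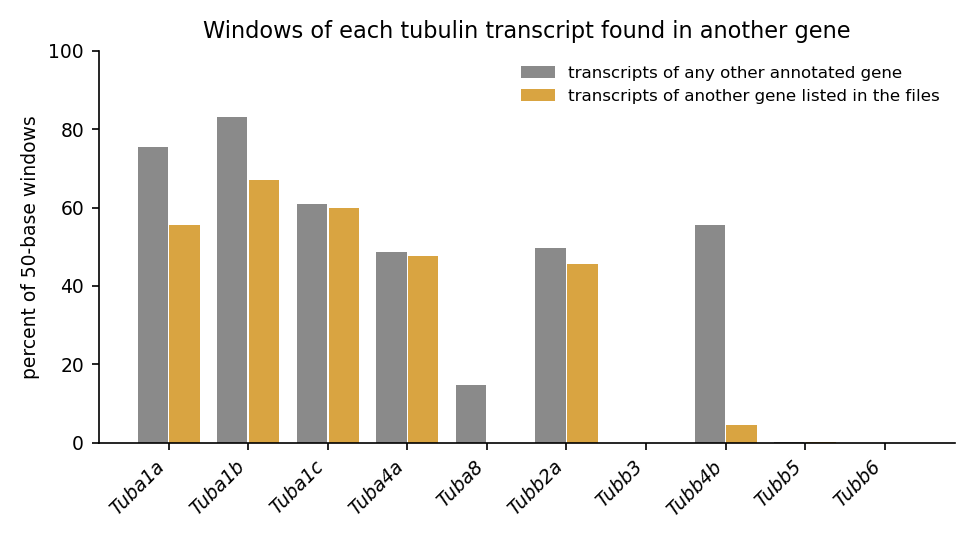
Percent of the 50-base windows of each tubulin transcript that also occur in transcripts of any other annotated gene (grey) or of another gene listed in the files (yellow), on either strand. The Tuba1 genes exceed 55% on the second measure, while Tubb5 is at 0.115% and Tubb3 and Tubb6 are at 0.

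The remaining alpha and beta tubulin genes were close to silent. Tubb4a, a beta isotype of brain, was listed at 0.71 FPKM in the KO-labelled and 0.95 FPKM in the wild type library, and Tubb2b, the close copy of Tubb2a, at 0.38 and 0.57 FPKM. Tubal3, an alpha-like gene, stood at 0.15 and 0.06 FPKM. Tubb1, the beta isotype of platelets, stood at 0.29 and 0.80 FPKM from about 8 and 24 reads, a ratio of 0.363 (0.14004 to 0.830). The testis genes Tuba3a and Tuba3b were in neither file. The Tubb2a and Tubb2b sum was 3.97 and 4.95 FPKM, a ratio of 0.802 (0.603 to 1.05).

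The gamma, delta and epsilon tubulins and the gamma-tubulin ring complex, which seeds microtubules, had 11 of 12 genes averaging 1 FPKM or more. All 11 were within 1.5-fold, where 12.2% of all genes were not. Their median difference of -0.03 was 0.15 with equal sums and 0.01 with length centring. Tubg1, the main gamma tubulin gene, was listed at 40.01 FPKM in the KO-labelled and 40.84 FPKM in the wild type library. The largest differences were in Nedd1, which recruits the ring complex (12.3 FPKM in the KO-labelled and 9.82 FPKM in the wild type library), Mzt1 (21.3 and 25.2 FPKM) and Tubgcp2 (20.9 and 24.3 FPKM), both parts of it.

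New tubulin chains are folded in turn by prefoldin, the CCT chaperonin and the tubulin cofactors. Of 6 prefoldin genes, 1 was at least 1.5-fold lower and 0 higher, against 6.13% and 6.11% of all genes. That gene was Pfdn5, at 162 FPKM in the KO-labelled and 266 FPKM in the wild type library (ratio 0.609, 0.572 to 0.648); the list median of -0.13 changed sign, to 0.06 with equal sums and 0.08 with length centring. All 8 CCT genes were within 1.5-fold, where 12.2% of all genes were not, with a median of 0.08. Among them Cct6a (209 and 168 FPKM), Cct8 (189 and 161 FPKM) and Cct7 (129 and 114 FPKM) differed most. All 7 folding cofactor genes were within 1.5-fold, against the same background, with a median of -0.11 that was 0.07 with equal sums. As deposited 6 of them lay below 0, where 50.8% of all genes lay above it. Relative to genes of their length Tbcb (0.19), Tbcel (0.03) and Tbcc (0.01) stood above 0 and the others below. Tbca, which holds folded beta tubulin, was listed at 134 and 192 FPKM (ratio 0.698, 0.640 to 0.760). The GTPase gene Arl2 followed with 29.9 and 38.6 FPKM, and then Tbce, which acts on alpha tubulin, with 19.95 and 24.03 FPKM. Pfdn5 and Tbca are short transcripts of 708 and 503 bases, and relative to genes of their length they stood at -0.40 and -0.14, inside 1.5-fold.

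Cells also set tubulin mRNA by the level of free dimer, through Ttc5, which reads the first residues of a nascent tubulin chain, and Scaper, which links it to mRNA decay. The first 4 codons are atgcgcgagTGC in Tuba4a and atgagggaaTGC in Tuba8. They are atgagggaaATC in Tubb5, atgagggagATC in Tubb4b and Tubb3, and atgcgcgagATC in Tubb2a, where capitals mark the fourth codon, at which the chains differ. Ttc5 was listed at 16.0 FPKM in the KO-labelled and 18.9 FPKM in the wild type library, and Scaper at 5.12 and 6.02 FPKM. Both were within 1.5-fold, where 12.2% of all genes were not.

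Of the enzymes that remove and restore the final tyrosine or acetylate alpha tubulin, 6 genes had a mean of at least 1 FPKM. None was past 1.5-fold, where 12.2% of all genes were, and their median of -0.11 was 0.06 with equal sums. Atat1, the alpha tubulin acetyltransferase, lay just inside the threshold on the log2(FPKM + 1) scale at -0.58. It lay past the threshold with upper-quartile scaling (-0.61) and median of ratios scaling (-0.60), and inside it with equal sums (-0.41) and length centring (-0.42). It was listed at 8.10 FPKM in the KO-labelled and 12.6 FPKM in the wild type library (ratio 0.641, 0.531 to 0.770). Svbp, the partner of the detyrosinating vasohibins, was listed at 11.9 and 14.7 FPKM and the deacetylase gene Sirt2 at 28.4 and 30.3 FPKM. Of the enzymes that add or trim glutamates, 5 genes had a mean of at least 1 FPKM and none was past 1.5-fold, against the same 12.2%. Ttll4, a glutamylase, stood at 9.08 and 6.09 FPKM, Agbl5 (CCP5) at 38.4 and 52.0 FPKM and Agtpbp1 (CCP1) at 12.9 and 10.3 FPKM.

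Proteins that promote growth or bind the plus end of microtubules had 16 genes averaging 1 FPKM or more, of which 1 passed 1.5-fold upwards and 1 downwards, against 6.11% and 6.13% of all genes, so the shares were near the background. Their median of 0.16 was -0.03 with length centring. Tacc1, a centrosome-associated coiled-coil gene, was listed at 33.3 FPKM in the KO-labelled and 19.8 FPKM in the wild type library (ratio 1.68, 1.59 to 1.77), and Mapre3, an end-binding protein gene named here after its value was seen, at 0.71 and 2.88 FPKM (0.247, 0.142 to 0.404). Ckap5, a microtubule polymerase gene, stood at 35.7 and 26.1 FPKM and Dctn1, a dynactin gene, at 47.2 and 35.2 FPKM.

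Among the 10 depolymerising, sequestering and severing genes averaging 1 FPKM or more, 1 passed 1.5-fold upwards and 1 downwards, where 6.11% and 6.13% of all genes did. Their median of 0.03 was -0.03 with length centring. Stmn1 (stathmin), which binds free tubulin dimers and is abundant in dividing cells, was listed at 885 FPKM in the KO-labelled and 1463 FPKM in the wild type library (ratio 0.605, 0.592 to 0.618). Its level per length passed that of Tuba1b in each library. Spast, which severs microtubules and prefers glutamylated ones, stood at 16.4 and 10.3 FPKM (1.59, 1.45 to 1.75), and the depolymerising kinesin gene Kif2a at 25.85 and 21.01 FPKM. Relative to genes of their length Tacc1 (0.44), Spast (0.46) and Stmn1 (-0.50) all lay inside 1.5-fold; on equal sums Stmn1 stood at -0.54, inside 1.5-fold, and Tacc1 (0.91) and Spast (0.80) stayed outside.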

How the data were processed

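RNA of flow-sorted LT-HSCs was sequenced on a BGISEQ-500, per the labels, 1 library per genotype. The deposited files give Entrez identifier, RefSeq transcripts, length in bases and FPKM per gene, computed by the authors, per the file headers. HISAT, HISAT2, RSEM and the build mm9 appear in the submitters' processing notes; the sources used here do not state versions, settings, read length or strand. Symbols (17169 of 17216 identifiers matched) and sequences came from GRCm38 annotation, so no coordinates are given. Protein sequences were not used here. Some isotype sequences are not reported here.

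A gene absent from a file counted as 0. The difference was log2(FPKM + 1), KO-labelled minus wild type, counted past 1.5-fold where the mean reached 1 FPKM. Ratios are of FPKM without the added 1. Depth was estimated from whole-read steps in low FPKM values of single-transcript genes of 200 to 800 bases: about 14.3 M reads in the KO-labelled and 15.6 M in the wild type library, with 86.1% of 252 and 82.7% of 255 values within 0.15 of a whole read. Step and length offset were chosen to maximise this fit. Exact conditional 95% intervals of ratios, exact Poisson intervals of levels and a log (Woolf) interval of the ratio of ratios use these reads, are approximate, and cover counting error only. The procedure was run on simulated Poisson counts, drawn independently for each gene. Those counts held no reads shared between genes and no variation between animals, so the run checks the intervals for neither. Members and lists were chosen with earlier results of these data known. Named genes were the members, every other listed alpha or beta tubulin, Agbl3 and, per list, up to 3 genes averaging 5 FPKM or more, by absolute difference. With 2 libraries, likeness of pattern between genes was not assessed. Alternatives covered pseudocount, filter, scaling and centring on the 200 genes nearest in length. Tools were scipy 1.17.1, pandas 2.3.3, matplotlib 3.10.9 and numpy 2.4.6 under Python 3.11.15.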

Additional observations from a re-analysis of the deposited data

How the results depend on the processing

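None of the isotypes kept by the filter on low values passed 1.5-fold or 2-fold under any alternative pseudocount, filter, scaling or length centring that was run. Tubb3, which the filter of 1 FPKM left out, had a difference of 0.92 with a pseudocount of 0.1, past 1.5-fold, and 0.20 with 1. The alpha sum difference (-0.00014) was 0.19 with equal FPKM sums and -0.029 with upper-quartile scaling. The beta sum difference (-0.035) was 0.15 and -0.064 under the same settings. The tubulin pathway lists held 2 genes at least 1.5-fold higher and 3 lower, where 6.11% and 6.13% of all genes were. These counts were 5 and 1 with equal sums, where 69.7% of all genes averaging 1 FPKM or more lay above 0. They were 0 and 1 with length centring, 1 and 2 with a pseudocount of 5, and 2 and 2 with a mean of at least 5 FPKM. They were 2 and 4 with a pseudocount of 0.1, upper-quartile or median of ratios scaling. The share of all genes past 1.5-fold is not given under these alternatives, so the moves are not read as a result about these lists. The log2 difference in the alpha to beta ratio stayed between 0.035 and 0.039 when every tubulin gene listed was used or FPKM was multiplied by length. Sums were not recomputed with filters or length centring, which do not apply to them. No paired analysis was possible because each genotype has 1 library, and for the same reason none could be left out. The step-based depth limits Tubb3, Tubb2a, Tubb6 and Agbl3, whose counting intervals hold 1.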
